A study of Mus musculus with 23 samples.

Results

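The pyruvate dehydrogenase switch was followed through 10 genes, Pdk1, Pdk2, Pdk3, Pdk4, Pdp1, Pdp2, Pdha1, Dlat, Mpc1 and Mpc2, which 14 probes measured. They were chosen by name, with earlier results of these data known, from the 20145 named genes and 55681 non-control probes of a mouse expression microarray. Every probe whose RefSeq transcript belongs to these genes was taken, whatever its values. The samples were TM4 cells, an immortalized mouse Sertoli cell line, and Sertoli cells are the somatic cells of the testis that feed developing germ cells. Cells were exposed for 48 h to 100 µM of MEHP (monoethylhexyl phthalate, the active metabolite of a phthalate plasticizer), DINCH (a diisononyl ester of cyclohexane dicarboxylic acid sold as a phthalate replacement), DOM (dioctyl maleate), BDB (butanediol dibenzoate) or DOS (dioctyl succinate), or to the vehicle, 1.0% DMSO. The series describes the 4 samples of each group as biological replicates, and DOS had 3 because the study left out 1 array for high background. The study asked whether candidate plasticizers change gene expression in these cells less than the compounds they would replace. All the samples came from 1 immortalized line, so the values describe that line.

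The pyruvate dehydrogenase complex of mitochondria turns pyruvate into acetyl-CoA and so commits the carbon of glucose to oxidation. Pyruvate dehydrogenase kinases phosphorylate its E1 alpha subunit and switch the complex off, the phosphatases switch it on again, and the mitochondrial pyruvate carrier brings in the substrate. Pdk4 is the kinase best known for induction by fasting and fatty acids, and it is a textbook target of the peroxisome proliferator-activated receptors (PPARs). Sertoli cells are known to turn much of their pyruvate into lactate, which germ cells use as fuel.

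Each level below is the log2 of a probe's processed signal minus the log2 of that array's 75th percentile, so that 0 means a signal at that percentile and 1 unit is a doubling. The 75th percentile lay between 204.6 and 350.7 intensity units, and 43.4% to 52.2% of spots were well above background on an array. The 23 arrays lay on 3 slides. MEHP, DINCH and BDB arrays lay in the odd rows of the slides and DMSO, DOM and DOS arrays in the even rows. Row and compound therefore cannot be told apart where MEHP, DINCH or BDB is set against DMSO, DOM or DOS. Of 13 listed Sertoli cell markers, Gata4, Kitl, Inhbb and Dhh were among those well above background on all 23 arrays, while Wt1, Fshr and Cldn11 were so on none and Amh and Trf on 1. Among 16 markers of other testis cells on the array, 4 were above background on all 23 arrays (Cyp17a1, Acta2, Csf1r and Pecam1) and 9 on none, including the germ cell markers Ddx4 and Dazl.

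Pdk4 was strongly higher with MEHP and with DOM, moderately higher with DINCH, and not called with BDB or DOS. A difference was called when limma's adjusted p, with Benjamini-Hochberg adjustment over all probes tested, was below 0.05 and the change was larger than 1.5-fold. One probe measured the gene, and it was well above background on all 23 arrays. The sequence just upstream of the transcript's start is shown because Pdk4 gave the largest response among the members. It is from RefSeq (GRCm38.p6, chr6:5496279-5496528, minus strand), reads 5′ to 3′ and ends at the base before the start, and the capitals mark the 1 CCAAT box found, here as ATTGG on the opposite strand:
Pdk4: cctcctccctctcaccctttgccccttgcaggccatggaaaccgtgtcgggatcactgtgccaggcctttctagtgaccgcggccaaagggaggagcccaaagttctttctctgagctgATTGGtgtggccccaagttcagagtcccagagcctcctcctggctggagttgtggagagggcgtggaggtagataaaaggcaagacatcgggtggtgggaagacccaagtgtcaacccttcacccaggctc

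This window was searched on both strands for the DR1 element of PPARs (AGGTCA repeated in the same direction with 1 base between), its half-site alone (which also lies inside the DR1), TCAAGGTCA (the element of estrogen-related receptors, which also holds the half-site), GTAAACA (the FOXO element), GGGCGG (the GC box), CCAAT (the CCAAT box) and TATAAA (the TATA box). Of these, only the CCAAT box matched in the Pdk4 window, and 33.8% of 32851 RefSeq windows of 250 bases held it. The DR1 letters were present in 0.0335% of all windows, the half-site in 14%, the estrogen-related receptor element in 0.387%, the FOXO element in 3.17%, the GC box in 32.7% and the TATA box in 12.4%. The Pdk4 window was 58.8% G and C with 6 CpG, beside medians of 52.4% and 6 over all windows. A match or its lack says only whether those letters stand in these 250 bases.

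In the vehicle, Pdk4 lay at -1.47, -1.46, -1.54 and -1.30 in replicates 1 to 4, a processed signal of 87.3 to 116 where the dimmest probes well above background read 9.21 to 17.2 over all arrays. With MEHP it lay at 2.13, 2.18, 2.15 and 2.22, a processed signal of 1100 to 1430. The MEHP arrays stood within a narrow band far above every vehicle array. The difference was 3.61 ± 0.08 (log2, SE, n = 4 and 4), or 12.2-fold, with a 95% confidence interval of 3.44 to 3.79 and a limma adjusted p of 1.56e-07. The gene is one of 1.68% of tested genes called with MEHP. The summed signal of the peritubular myoid markers, of which only Acta2 was above background on all arrays, was lower with MEHP (4.52 to 4.64, log2 relative to the 75th percentile) than in the vehicle (4.87 to 5.22), and its part in the result was not tested.

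With DOM, Pdk4 lay at 2.26, 1.76, 1.44 and 2.60, all above the vehicle arrays but spread much more widely than with MEHP, with an SD of 0.52 against 0.04. The difference from DMSO was 3.46 ± 0.23 (log2, SE, n = 4 and 4), or 11-fold, with a limma adjusted p of 0.000108. DOM was also the compound with the most calls, at 20.5% of tested genes. The summed signal of the Sertoli cell markers was higher with DOM as well (5.42 to 6.10, log2 relative to the 75th percentile) than in the vehicle (3.83 to 4.80), and its part in the result was not tested. This sum rests largely on Inhbb, which lay at 2.57 to 6.02 over all arrays, beside 0.51 to 2.56 for Dhh, the next highest.

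With DINCH, Pdk4 lay at 0.34, -0.62, -0.71 and 0.02, above every vehicle array and below every MEHP and DOM array. The difference from DMSO was 1.20 ± 0.22 (log2, SE, n = 4 and 4), or 2.29-fold, with a confidence interval of 0.70 to 1.70 and a limma adjusted p of 0.0129. With DINCH, 8.26% of tested genes were called. The call was lost, at an adjusted p of 0.0914, when no filter on dim probes was applied.

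With DOS, Pdk4 lay at -0.26, -0.65 and -0.35 in replicates 1, 3 and 4. These 3 arrays were all above the 4 vehicle arrays, and the difference was 1.02 ± 0.12 (log2, SE, n = 3 and 4), or 2.03-fold, with a confidence interval of 0.74 to 1.31. The limma adjusted p over all probes was 0.339, so the difference was not called, and the unadjusted p was 2.69e-05. Without DOS replicate 3 the difference was 1.14 and was called, with an adjusted p of 0.0379. No gene was called with DOS (0% of those tested), where 1725 probes had an unadjusted limma p under 0.05, and 2 genes were called with normexp background correction. The summed signal of the peritubular myoid markers was higher with DOS (5.50 to 5.99) than in the vehicle, and its part in the result was not tested either.

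With BDB, Pdk4 lay at -1.51, -1.82, -1.82 and -1.59, with replicate 1 inside the vehicle range and the other 3 arrays below it. The difference of -0.24 ± 0.10 (log2, SE, n = 4 and 4) had a confidence interval of -0.48 to -0.01 and a limma adjusted p of 0.328. With normexp background correction it was -0.05. BDB likewise gave no called gene (0%), with 3494 probes at an unadjusted limma p under 0.05, but normexp background correction gave 28 genes higher and 14 lower.

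**Figure D1:**
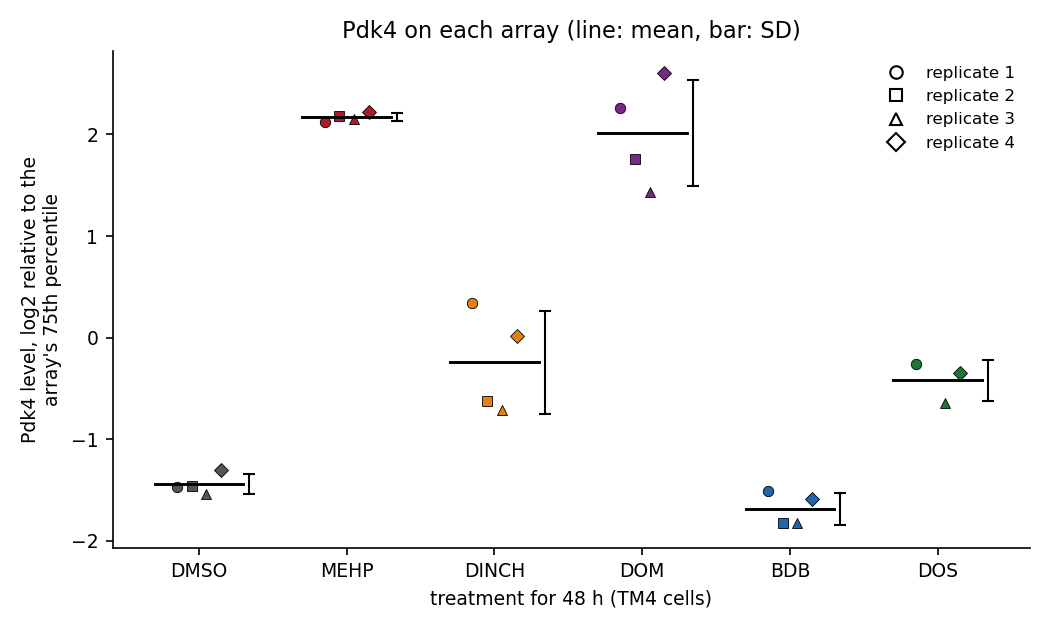
Pdk4 level on each of the 23 arrays (vertical axis, log2 relative to the array's 75th percentile) by treatment (horizontal axis), with symbols for the replicate number, a line for the group mean and a bar for the SD. MEHP arrays lie between 2.13 and 2.22 and DOM arrays between 1.44 and 2.60, while vehicle arrays lie between -1.54 and -1.30.

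The same differences were taken within each slide. MEHP stood above DMSO by 3.62, 3.65 and 3.52 on slides 1, 2 and 3. For DOM the within-slide differences were 3.48, 2.94 and 3.90. DINCH gave 1.81, 0.88 and 0.95, so its difference on slide 1 was the largest of its 3. For DOS the differences were 1.21 on slide 1 and 0.80 on slide 3, and slide 2 held no DOS array. BDB gave -0.04, -0.32 and -0.29. With slide as a block in the fit, Pdk4 differed from DMSO by 3.61 with MEHP, 3.40 with DOM, 1.16 with DINCH, 0.98 with DOS and -0.24 with BDB, and no call changed.

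Ordered by mean level, Pdk4 ran from BDB (-1.69) through DMSO (-1.44), DOS (-0.42), DINCH (-0.25) and DOM (2.02) to MEHP (2.17). Of neighbours in that order, DINCH and DOM differed by more than their spread and were called, DOS and DMSO did not overlap but were not called, and the BDB and DMSO, DINCH and DOS, and MEHP and DOM groups overlapped.

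All 10 pairs of compounds were compared at the same dose and time, and p-values for Pdk4 were also adjusted over these 10. DOM and DOS are both dioctyl esters and differ in the acid, maleate with a carbon double bond and succinate without it. Pdk4 was higher with DOM than with DOS by 2.43 ± 0.26 (log2, SE, n = 4 and 3), or 5.41-fold, with a confidence interval of 1.83 to 3.04, a limma adjusted p of 0.00184 over all probes and 1.66e-05 over the 10 pairs. Between those compounds 15.2% of genes were called. MEHP and DOM, a phthalate monoester and a maleate diester, differed by 0.16 ± 0.22 with overlapping arrays, a confidence interval of -0.35 to 0.66 and a limma adjusted p of 0.633, while 19.5% of genes were called between them. Leaving out DOM replicate 3 turned that small difference to -0.04. The interval leaves room for Pdk4 to differ between these compounds by up to 0.66 log2 units.

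MEHP exceeded DINCH by 2.42 ± 0.21, with a limma adjusted p of 0.00107, in a comparison that called 2.4% of genes. DOM exceeded DINCH by 2.26 ± 0.30 (adjusted p of 0.000475 by limma), where 23.3% of genes were called. Against DOS, DINCH differed by 0.18 ± 0.26 with a confidence interval of -0.40 to 0.75 and overlapping arrays, and 3.04% of genes were called. That difference became -0.02 without DINCH replicate 1. DINCH and DOS could not be ordered by Pdk4 on these arrays.

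MEHP exceeded DOS by 2.59 ± 0.11 (limma adjusted p of 0.000196), in a comparison where only 0.194% of genes were called. MEHP exceeded BDB by 3.86 ± 0.09, with an adjusted p of 1.69e-07 by limma, and 2.59% of genes were called. DOM exceeded BDB by 3.70 ± 0.23 (limma adjusted p of 3.15e-05, 27.5% of genes called), and DINCH exceeded BDB by 1.44 ± 0.22 (limma adjusted p of 0.0042, 9.89% of genes called). MEHP, DINCH and BDB arrays shared the same slide rows, and so did DOM and DOS arrays. Pairs that cross these sets also differed in slide row.

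BDB and DOS, neither of which gave a call against the vehicle, differed from each other in Pdk4 by -1.27 ± 0.13 (log2, SE, n = 4 and 3), with a confidence interval of -1.57 to -0.96. Every DOS array was above every BDB array. The limma adjusted p was 0.0453, and Pdk4 was among the 0.0419% of genes called, 5 in all. With the replicate number as a block the difference was -1.22 and the adjusted p was 0.0858. Adjusted over the 10 pairs alone, the p was 1.35e-05.

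**Figure D2:**
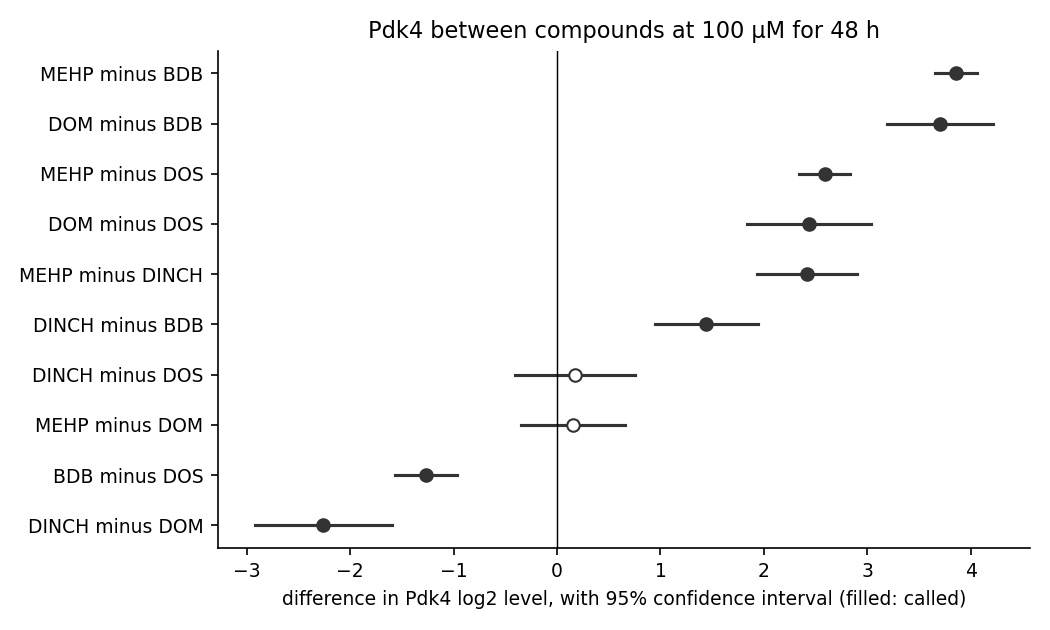
Difference in Pdk4 log2 level between each of the 10 pairs of compounds (horizontal axis, first minus second) with its 95% confidence interval, and filled points for calls. The intervals of MEHP minus DOM and DINCH minus DOS cross 0, and the other 8 do not.

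Across the 10 members the calls against DMSO were all upward. MEHP called 1 member (Pdk4), DINCH called Pdk4 and Pdp2, and DOM called Pdk2, Pdk4 and Pdp2, while BDB and DOS called 0. These counts of 1, 2, 3, 0 and 0 of 10 members stand beside 1.68%, 8.26%, 20.5%, 0% and 0% of all tested genes. With only 10 members, the counts are no result about the set. Members called higher can also be read against the share of genes called higher, which was 1.13% with MEHP, 4.25% with DINCH and 9.9% with DOM, and lower calls made up 0.552%, 4.02% and 10.6%. The median difference of the members was -0.09 with MEHP, 0.22 with DINCH, -0.05 with DOM, -0.17 with BDB and 0.09 with DOS, beside medians over all tested genes between -0.03 and 0. With quantile normalization the DOM median was 0.01. All 5 comparisons share the same 4 DMSO arrays. Of the 14 probes, 13 passed the filter on low signal, and the one left out was the second Pdp2 probe, whose level lay between -5.61 and -3.77.

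**Figure D3:**
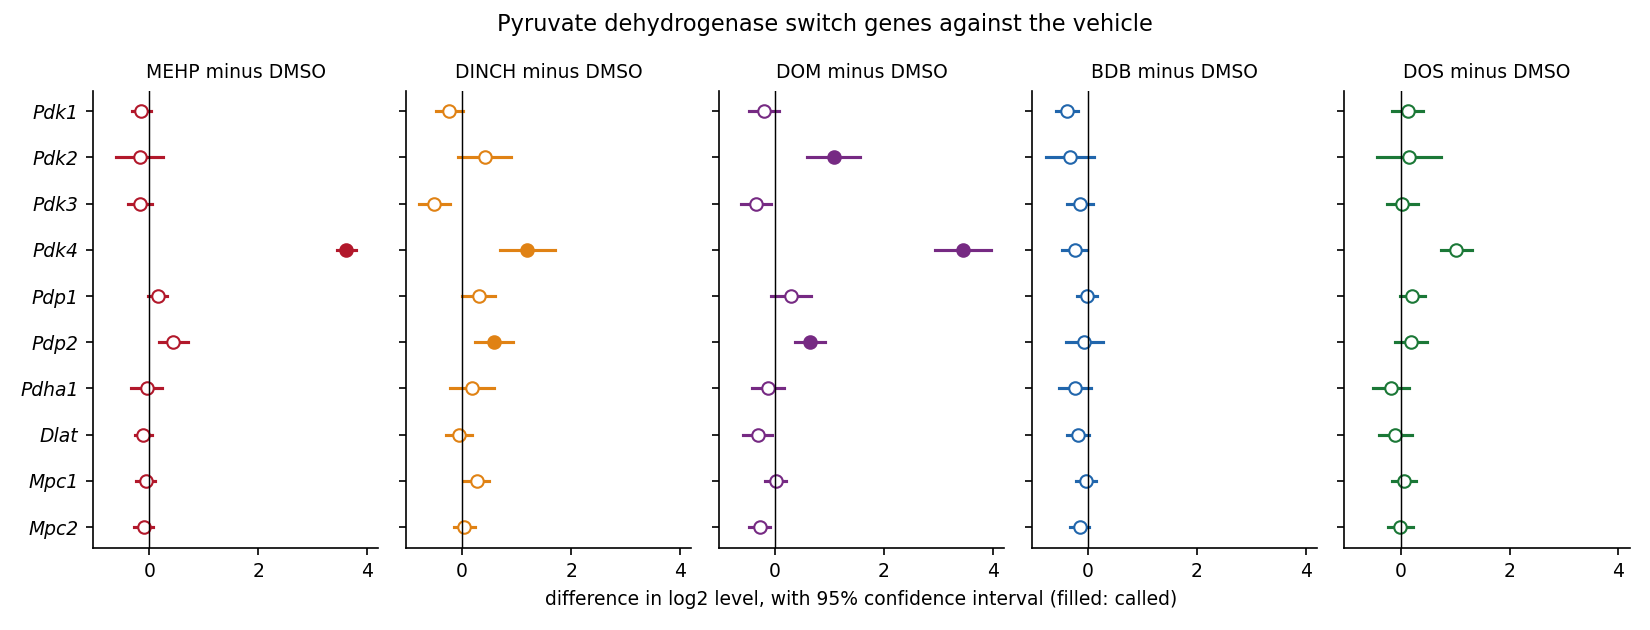
Difference from DMSO in log2 level (horizontal axis) for the 10 members (vertical axis, brightest probe of each gene) with each compound, with 95% confidence intervals and filled points for calls. Pdk4 stands at 3.61 with MEHP, 1.20 with DINCH and 3.46 with DOM, and no other member passes 1.08.

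Pdk2, the most widely expressed of the kinases, rose with DOM and was called with no other compound against DMSO. The first of its 2 upstream windows is shown because, like Pdk4, the gene was called higher with DOM; it lies at chr11:95041372-95041621 on the minus strand (RefSeq, GRCm38.p6), and the capitals mark 3 CCAAT boxes, all as ATTGG on the opposite strand:
Pdk2: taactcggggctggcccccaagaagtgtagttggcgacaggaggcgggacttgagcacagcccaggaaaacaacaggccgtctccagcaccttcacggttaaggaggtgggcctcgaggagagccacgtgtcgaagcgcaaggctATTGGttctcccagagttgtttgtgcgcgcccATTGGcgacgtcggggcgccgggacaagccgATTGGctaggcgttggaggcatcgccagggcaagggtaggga

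None of the other motifs searched stood in that window, which had 19 CpG, and the second window, chr11:95040876-95041125 with 12 CpG, held no match to any of the motifs. In the vehicle Pdk2 lay at -1.09, -0.30, -0.55 and -0.10, the widest spread of any kinase in that group. With DOM it lay at 0.41, 0.76, 0.29 and 0.80, above all vehicle arrays. The difference was 1.08 ± 0.21 (log2, SE, n = 4 and 4), or 2.11-fold, with a limma adjusted p of 0.00559. Within slides 1, 2 and 3 it was 1.67, 0.72 and 0.90.

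DINCH gave Pdk2 levels of -0.13, -0.37, -0.16 and 0.27, which overlapped the vehicle, with a difference of 0.41 and a limma adjusted p of 0.27. MEHP gave -0.80, -0.57, -0.72 and -0.65, a difference of -0.17 with an interval of -0.61 to 0.26. Unlike Pdk4, Pdk2 thus separated MEHP from DOM: it was lower with MEHP by 1.25 ± 0.13, with an adjusted p of 0.000229 by limma. It was also higher with DOM than with DOS by 0.92 ± 0.20 (limma adjusted p of 0.0176), than with BDB by 1.4 ± 0.14 (0.000124) and than with DINCH by 0.66 ± 0.17 (0.0148). BDB levels of -1.02 to -0.64 and DOS levels of -0.77 to -0.03 were not called against DMSO, and DINCH exceeded BDB by 0.74 ± 0.15 (limma adjusted p of 0.0108).

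Pdk1, the kinase known for induction by hypoxia, and Pdk3 were called in no comparison. Pdk3 lay at 1.44, 1.19, 1.43 and 1.62 in the vehicle. With DINCH it lay at 0.76, 0.85, 0.88 and 1.14, below every vehicle array. The difference was -0.51 ± 0.12, with a limma adjusted p of 0.0326, but at 1.43-fold it stayed under the fold limit. It passed both limits when DINCH replicate 4 or DMSO replicate 2 was left out, at -0.59 in each case. With DOM, Pdk3 levels of 0.84 to 1.18 were also all below the vehicle, by 0.36 with an adjusted p of 0.0538.

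Pdk1 lay at 0.92, 0.89, 0.86 and 1.07 in the vehicle. BDB arrays, at 0.69, 0.46, 0.57 and 0.48, were all lower, with a difference of -0.38 ± 0.09 and a limma adjusted p of 0.114. MEHP arrays, at 0.74 to 0.84, were also all below the vehicle arrays, with a difference of -0.15 and an adjusted p of 0.391. DINCH and DOM differences were -0.24 and -0.20 with overlapping arrays.

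Pdp2, one of the phosphatases that reverse the kinases, rose with DINCH and DOM. Its upstream window is shown because Pdp2, which acts against the kinases, was called with DINCH and DOM, as was Pdk4. The window lies at chr8:104591222-104591471 on the plus strand (RefSeq, GRCm38.p6). The capitals mark 1 GC box and 2 CCAAT boxes, the GC box and the first CCAAT box on the opposite strand:
Pdp2: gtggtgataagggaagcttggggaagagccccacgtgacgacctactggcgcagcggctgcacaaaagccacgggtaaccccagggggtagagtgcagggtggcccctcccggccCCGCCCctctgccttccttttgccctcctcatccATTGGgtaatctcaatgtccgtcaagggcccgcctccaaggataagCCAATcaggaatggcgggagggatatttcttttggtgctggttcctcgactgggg

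In the vehicle the brighter Pdp2 probe lay at 0.90, 0.70, 0.69 and 0.68. With DOM it lay at 1.58, 1.43, 1.09 and 1.42, above every vehicle array. The difference was 0.64 ± 0.12 (log2, SE, n = 4 and 4), or 1.56-fold, with a limma adjusted p of 0.00457. It fell under the fold limit with slide as a block (0.57), with normexp background correction (0.56) and without DOM replicate 1 (0.57).

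With DINCH, Pdp2 lay at 1.73, 1.16, 1.00 and 1.41, all above the vehicle. The 4 DINCH arrays stood in the same order for Pdp2 as for Pdk4, with replicate 1 highest and replicate 3 lowest. The difference was 0.59 ± 0.15, or 1.5-fold, with a limma adjusted p of 0.0425, close to both limits. The call was lost when DINCH replicate 1, 2 or 4 or any 1 of the 4 DMSO arrays was left out, with adjusted p of 0.056 to 0.116. With normexp background correction the difference was 0.45, under the fold limit. Without a filter on dim probes, or with detection on 1 array enough, the call was lost too (limma adjusted p of 0.218 and 0.0977). With the replicate number as a block it was kept, at a limma adjusted p of 0.0243.

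MEHP gave Pdp2 levels of 1.4, 1.22, 0.88 and 1.21, of which 3 were above all vehicle arrays, with a difference of 0.44 and a limma adjusted p of 0.104. Against BDB, Pdp2 was higher with DOM by 0.70 ± 0.17 (limma adjusted p of 0.00835) and with DINCH by 0.65 ± 0.19 (0.049). BDB differed from DMSO by -0.06 and DOS by 0.19, neither called.

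Pdp1, the other phosphatase, had 3 probes and no call. Its brightest probe lay at 1.48, 1.44, 1.5 and 1.65 in the vehicle and at 2.09, 1.56, 1.46 and 2.12 with DOM, a difference of 0.29 with an adjusted p of 0.205. Its second probe differed with DOM by 0.37 ± 0.11, with a limma adjusted p of 0.0372 and a change of 1.29-fold, under the fold limit. With DINCH the 3 probes differed from DMSO by 0.31, 0.26 and 0.23, and with MEHP by 0.15, 0.11 and 0.15. With DOS they differed by 0.21, 0.14 and 0.25, and with BDB by -0.01, -0.14 and 0.13. All 3 probes were thus higher in mean with DOM, DINCH, MEHP and DOS, none by enough to be called.

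**Figure D4:**
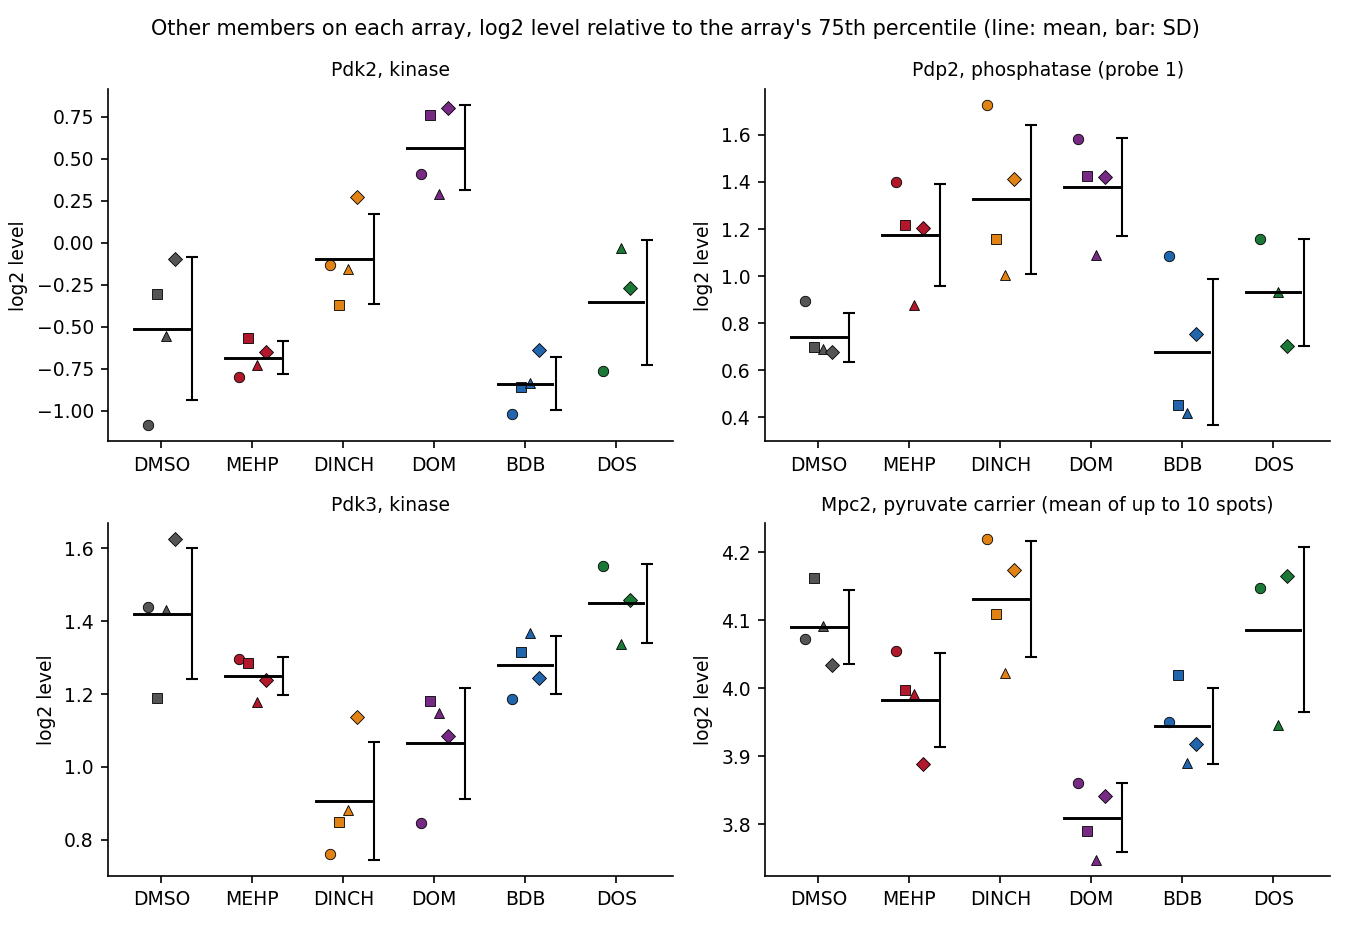
Levels of Pdk2, Pdp2 (brighter probe), Pdk3 and Mpc2 on each array (vertical axes, log2 relative to the array's 75th percentile, each with its own range) by treatment, with symbols for replicate number as for Pdk4, a line for the mean and a bar for the SD. Pdk2 and Pdp2 were called with DOM, where Pdk2 arrays lie between 0.29 and 0.80, and Mpc2 arrays with DOM lie between 3.75 and 3.86.

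The subunits of the complex moved little. Pdha1 encodes the E1 alpha subunit that the kinases phosphorylate, and it lay at 2.85, 2.64, 2.80 and 3.24 in the vehicle. Its differences from DMSO were -0.05 with MEHP, 0.18 with DINCH, -0.12 with DOM, -0.23 with BDB and -0.17 with DOS, with limma adjusted p between 0.481 and 0.884. Dlat encodes the E2 subunit, and it lay at 0.17, 0.02, 0.15 and 0.15 in the vehicle and at 0.11, -0.30, -0.34 and -0.26 with DOM. That difference of -0.32 ± 0.12 had an adjusted p of 0.0672 by limma and was the largest among the 5 compounds for Dlat.

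Mpc1 and Mpc2 encode the subunits of the mitochondrial pyruvate carrier. Mpc2 was printed in 10 spots per array, and its mean lay at 4.07, 4.16, 4.09 and 4.03 in the vehicle and at 3.86, 3.79, 3.75 and 3.84 with DOM. All DOM arrays were below the vehicle arrays, by 0.28 ± 0.08 with a limma adjusted p of 0.0315, but the change was 1.21-fold and was not called. Mpc1 lay at 4.58, 4.73, 4.66 and 4.74 in the vehicle and at 4.80, 4.98, 4.87 and 5.11 with DINCH, all above the vehicle. That difference of 0.26 ± 0.10 had an adjusted p of 0.129, and the second Mpc1 probe differed by 0.27.

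Genes around the switch were taken from fixed lists, drawn up with earlier results of these data known. A gene counted as called when any of its probes was. Over all tested genes, 1.68% were called with MEHP, 8.26% with DINCH and 20.5% with DOM. With so few genes, the counts in the next sentences are no result about these lists. Of 5 tested genes of the rest of the complex and its lipoylation (7 listed), 1 was called, Pdhx, which holds E3 in the complex, lower with DINCH by 0.64 ± 0.15 (limma adjusted p of 0.0312). That call was lost without any 1 of the 4 DMSO arrays and without DINCH replicate 1, 2 or 4. Of 16 genes of the TCA cycle, Idh3a was called lower with DOM by 0.64 ± 0.11 (adjusted p of 0.00277 by limma) and none with MEHP or DINCH. The median over the cycle with DOM was -0.20, beside -0.03 over all genes, and was -0.01 with quantile normalization, under which Idh3a was not called. The Idh3a call was also lost without DMSO replicate 1. Of 5 genes of the related branched-chain keto acid dehydrogenase, its phosphatase Ppm1k was called higher with DINCH, by 0.71 ± 0.18 (limma adjusted p of 0.0367). It was not called when DINCH replicate 1, 2 or 4 or DMSO replicate 2, 3 or 4 was left out.

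Among 11 tested genes for other fates of pyruvate (13 listed), 1 was called higher and 2 lower with DINCH, 2 higher and 2 lower with DOM, and 0 with MEHP. With so few genes these counts, beside 8.26% and 20.5% of all tested genes called with DINCH and DOM, are no result about the list. Ldha, which makes lactate from pyruvate, was lower with DOM on 2 of its probes, by 0.70 on each (limma adjusted p of 0.00126 and 0.00234). With DINCH the same 2 probes were lower by 0.66 and 0.61 (0.00607 and 0.0129), and the call of the second was lost without DMSO replicate 1 or 4. The brightest Ldha probe differed by -0.54 and -0.36 and was not called with either. Gpt2, an alanine aminotransferase, was lower with DOM by 0.84 ± 0.13 (limma adjusted p of 0.00206).

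The malic enzymes, which make pyruvate from malate, moved in different directions. Me1 was higher with DOM by 0.76 ± 0.10 (limma adjusted p of 0.00107). Me3 was higher with DINCH by 0.80 ± 0.14 (0.00987) and with DOM by 0.60 ± 0.17 (0.0273), and the DOM call was lost without DOM replicate 2, 3 or 4 or DMSO replicate 1 or 4. Me2 was lower with DINCH by 0.82 ± 0.19 (0.0285), a call that was lost without DINCH replicate 4 or DMSO replicate 1, 2 or 3.

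Of 12 tested transcription factors and coactivators known to act on Pdk genes (14 listed), 0 were called with MEHP, 2 with DINCH and 2 with DOM, beside 1.68%, 8.26% and 20.5% of all tested genes, so the DOM share was near the background. With DINCH 2 were higher, Ppargc1a, a coactivator of PPARs, by 1.21 ± 0.20 (limma adjusted p of 0.00848) and Rxra, the partner of PPARs on DNA, by 0.92 ± 0.13 (0.00537). Under the alternative settings these differences ranged from 0.64 to 1.37 for Ppargc1a and from 0.61 to 0.98 for Rxra. The Rxra value with DINCH came from its brightest probe, at a vehicle mean of -1.17, beside -2.89 for its second probe. By its brightest probe, Rxra was also above the vehicle on 4 of 4 MEHP arrays, by 0.57 with a limma adjusted p of 0.0229. At 1.49-fold that change was not called, and the second Rxra probe differed with MEHP by -0.09, with an adjusted p of 0.815. With quantile normalization 1 gene of the list was called with MEHP. With DOM, Foxo1 was higher by 0.90 ± 0.16 (limma adjusted p of 0.00282) and Ppargc1b was lower by 1.08 ± 0.25 (0.0111). The Ppargc1b call was lost under quantile normalization and normexp background correction, and its difference ranged from -1.26 to -0.29 under the alternative settings. Ppargc1b was dim, with a vehicle mean of -3.54. The dimmest probes well above background lay at -4.57 to -4.21 on the vehicle arrays. The receptor genes Ppara, Ppard and Pparg themselves were not called with any compound. Their differences with MEHP were -0.15 ± 0.13, 1.23 ± 0.92 and -0.17 ± 0.10, so Ppard was measured with a far wider error than the others.

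Pdk4 was set beside 21 other PPAR target genes, of which 15 were tested with MEHP, DINCH and DOM. With MEHP, 6 were called higher and 0 lower, and their median difference was 0.51, beside -0.01 over all genes. With DOM, 4 were called higher and 1 lower, with a median of 0.37, and quantile normalization gave 6 higher and a median of 0.52. With DINCH, 0 were called higher and 1 lower, with a median of 0.05. Over all tested genes 1.13% were called higher with MEHP, 9.9% with DOM and 4.25% with DINCH. The list was drawn up with earlier results of these data known, so its counts are a description and no test.

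Angptl4, a secreted inhibitor of lipoprotein lipase, was the list's gene with the largest change. It was higher with MEHP by 3.27 ± 0.23 (limma adjusted p of 0.00175) and with DOM by 3.02 ± 0.23 (0.000165). With DINCH it was lower by 2.72 ± 0.40 (limma adjusted p of 0.00623), on 4 of 4 arrays, while Pdk4 was higher on 4 of 4. Cpt1a, which admits fatty acids to mitochondria, was higher with MEHP by 1.1 ± 0.12 and with DOM by 2.00 ± 0.17, and differed by -0.13 with DINCH. Ucp2, a mitochondrial carrier, was higher with MEHP by 0.83 ± 0.10 and with DOM by 1.01 ± 0.11. Ech1, of fatty acid oxidation, was higher with MEHP by 0.70 ± 0.10, a call lost without MEHP replicate 2 or DMSO replicate 3. Acot2, a mitochondrial thioesterase, was lower with DOM by 0.93 ± 0.24, a call lost without DOM replicate 2. With no filter on dim probes, the MEHP calls of Cpt1a, Ucp2 and Ech1 were lost, and so was every DINCH call among the listed genes named here, from Pdhx and Ppargc1a to Angptl4. The DOM calls of Me3, Acot2 and Ppargc1b and the MEHP calls of Kank3 and Acly were lost with it too.

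**Figure D5:**
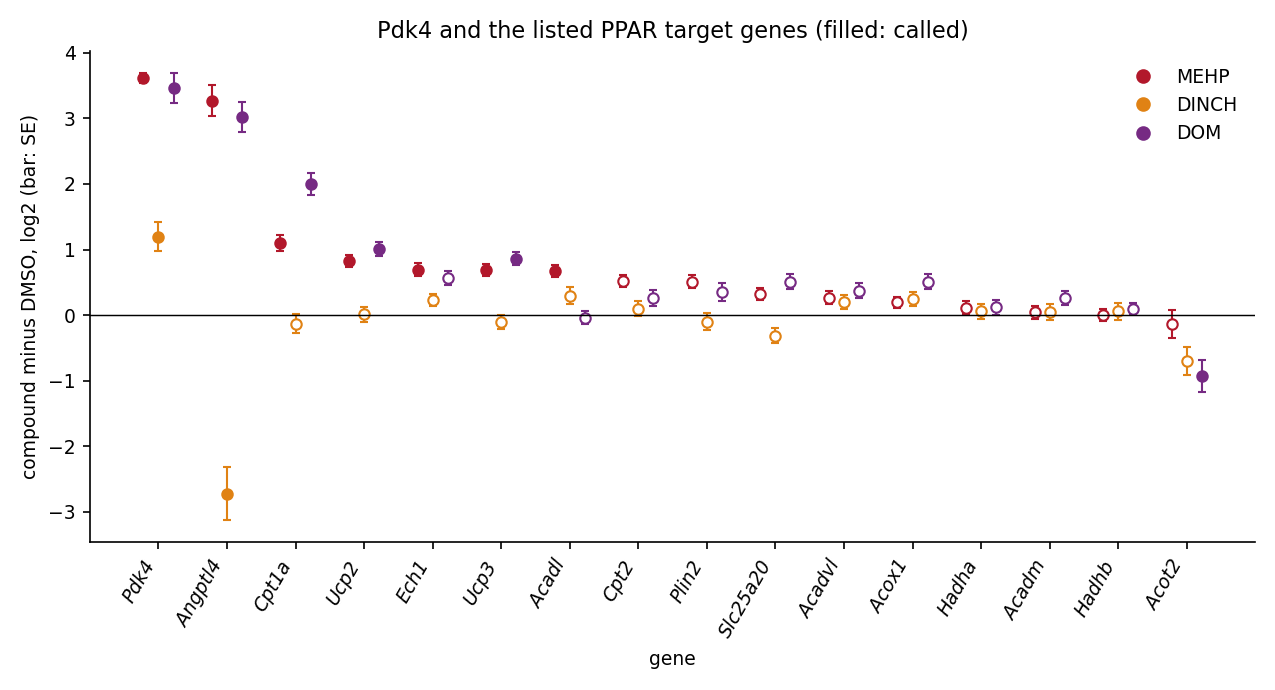
Difference from DMSO in log2 level (vertical axis, bar: SE) of Pdk4 and the 15 other PPAR target genes tested (horizontal axis) with MEHP, DINCH and DOM, with filled points for calls. With DINCH, Pdk4 stands at 1.20 and Angptl4 at -2.72, while with MEHP both stand above 3.

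The genes whose levels ran most like Pdk4 were found by Pearson's r over the 23 arrays among 12170 genes. Each gene was given by its probe with the highest r, which favours genes with several probes. They were Pcyt2, of phosphatidylethanolamine synthesis (r = 0.936), Kank3 (0.930), Ech1 (0.929), Acly, which makes cytosolic acetyl-CoA from citrate (0.922), and Tead2, a DNA-binding partner of YAP (0.895). These values describe likeness over arrays that share 6 groups and carry no test. Kank3 rose by 1.17 ± 0.12 with MEHP and 1.18 ± 0.15 with DOM, and Acly by 0.61 ± 0.08 and 0.93 ± 0.10. The Acly call with MEHP was lost without MEHP replicate 1 or DMSO replicate 4. The likeness of the members to Pdk4 ranged from 0.70 for Pdp2, which ranked 400, and 0.63 for Pdp1 to -0.33 for Pdk3 and -0.40 for Mpc2.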

How the data were processed

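RNA from 23 samples of TM4 cells was labelled with Cy3 and hybridised to 1-colour Agilent arrays. The authors deposited each array's scanner file, whose processed intensity is background-corrected, and a table of log2 values that was used here as an alternative. The members and gene lists were chosen with earlier results of these data known. Spots (62976 per array, 59305 non-control) flagged as outliers were left out, processed intensities were floored at 1, log2-transformed and centred on each array's 75th percentile, and spots of a probe were averaged. Probes were named through their RefSeq accession (26582 probes, 20145 genes). A probe was tested when it reached the 20th percentile and all arrays of either group compared had it well above background. Each pair of groups was fitted on its own with limma 3.58.1 in R 4.3.3 (lmFit and eBayes), with Benjamini-Hochberg adjustment. Array number limits the precision. A call needed an adjusted p below 0.05 and more than 1.5-fold. The fit was tested on simulated data.

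The text names every member, for each list up to 4 called genes with the largest change, and the 5 genes most like Pdk4, which include Ech1. Ldha was named beyond the 4 of its list. Ppara, Ppard and Pparg, which were not called, were named after their values were seen. Cell type markers were read only as above background or not and as summed levels, apart from the levels of Inhbb and Dhh. Where a gene had several probes, the brightest gave its value, except in the likeness to Pdk4, where the probe with the highest r was taken. Upstream windows came from RefSeq (GRCm38.p6); Pdp1 had no entry. Figures were drawn with matplotlib.

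Alternatives were other background correction (normexp, offset 50), quantile normalization, outlier spots kept, other filters, slide and replicate blocks, the authors' table and leaving out each array. Replicate numbers come from the sample titles. Taking every same-numbered pair's correlation of deviations over 0.1 as pairing, the numbers paired DINCH (0.17 to 0.50), BDB (0.25 to 0.43) and DOS (0.20 to 0.45) with DMSO and BDB with DOS (0.23 to 0.42), but not MEHP (-0.14 to 0.45) or DOM (0.04 to 0.43) with DMSO. They also paired MEHP with DOM (0.19 to 0.61) and with DOS (0.12 to 0.48). DINCH was paired with BDB (0.15 to 0.37) and DOS (0.33 to 0.37), and DOM with DOS (0.10 to 0.40). The remaining pairs of compounds were not paired by this rule.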

Additional observations from a re-analysis of the deposited data

Results flagged for a closer look

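In 70 sets of 4 arrays (14 member probes in 5 groups), 3 held an array far from the rest of its group by Dixon's 95% criterion, which chance alone meets in about 1 set in 20. Dlat, the E2 subunit of the complex, lay at 0.02 in DMSO replicate 2, where the next lowest array was 0.15. With DOM, Dlat lay at 0.11 in replicate 1, against -0.26 for the next highest array. The brighter Pdp2 probe lay at 0.89 in DMSO replicate 1, and the next highest array was 0.70.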

How the results depend on the processing

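Of 250 values of Pdk4 under alternative settings, 234 kept their direction and their side of the limits, and the calls with MEHP (3.08 to 3.66) and DOM (2.95 to 3.65) were kept in all 17. With no filter on dim probes, Pdk4 with DINCH stayed at 1.20 but lost its call (adjusted p 0.0914), and 0 members were called with DINCH, against 2. The count with DINCH was 1 with normexp background correction, 1 when detection on 1 array was enough, and 1 to 2 with each array left out. Without DINCH replicate 4 or DMSO replicate 2, Pdk3 was called lower and Pdp2 was not called. Pdk4 with DOS ranged from 0.94 to 1.14 with each array left out and was called in 1 such fit, so that 0 to 1 members were called. MEHP against DOM ranged from -0.038 to 0.35, turning sign without DOM replicate 3 (-0.038), and DINCH against DOS from -0.019 to 0.33, turning without DINCH replicate 1 (-0.019). The call between BDB and DOS was lost with quantile normalization (-1.29), no filter or detection on 1 array (-1.27 each), slide as a block (-1.16), the replicate block (-1.22) and the authors' table (-1.27), and ranged from -1.38 to -1.19 with each array left out, which ended it without any 1 of the 4 BDB arrays or without DOS replicate 1 or 4. The replicate block, for numbers that paired, changed no other call of Pdk4, and under it the members called with MEHP, DINCH and DOM were 1, 2 and 3 as before. Of 756 values of the other members, 741 stayed on the same side of the limits without a called value turning, and 27 of these changed sign while called under neither setting. Over all genes, calls with DOM were 1189 higher and 1275 lower, but 1374 and 1092 with quantile normalization, and with DINCH 506 and 479, but 264 and 330 with normexp. The causes were not tested. Array number, 3 or 4 per group, limits what differences could be called.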
